A study of Mus musculus with 6 samples.

Results

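Homeobox genes encode transcription factors that bind DNA through a homeodomain, and the families outside the Hox clusters pattern the brain, limbs, heart, gut and sense organs of the embryo. The 68 genes described here belong to 17 such families (the relatives of Six4, and Lhx, Dlx, Irx, Msx, Emx, En, Cdx, Meis, Pbx, Alx, Barx, Gbx, Isl, Vax, Evx and Nkx), together with the primitive streak genes Gsc and Mixl1. They were picked by gene symbol, with earlier results of these data known. They are 68 of the 19938 genes measured, each read by 1 probe set. In embryonic stem cells most genes of this kind are known to be silent or nearly so, held in a poised chromatin state by Polycomb complexes, and are switched on when the cells leave pluripotency. Meis, Pbx and Irx proteins belong to the TALE class, and Meis and Pbx proteins bind DNA as partners of other homeodomain proteins.

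The RNA came from mouse embryonic stem cells with a conditional Dicer allele, written Dicer Fx/Fx, the enzyme that cuts microRNA precursors into mature microRNAs. The group of 3 arrays called untreated here is labelled as conditional cells that had not undergone deletion, and the tamoxifen group of 3 arrays received tamoxifen for 3 days to delete it and was harvested 2 days later, on day 5. The labels name neither the recombinase nor a harvest day for untreated cells, and do not say whether the 3 samples of a group were separate cultures. Every p-value here therefore reflects array-to-array spread that may be technical in origin. Nor do the labels link untreated arrays to tamoxifen arrays. Same-numbered arrays were taken as replicate pairs because their values deviated together in these same data. The protocol also mentions the wild-type line E14; no arrays of it were analysed here, so an effect of tamoxifen on its own and the loss of Dicer cannot be told apart.

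Dicer1 had log2 intensities of 11.43, 11.36 and 11.48 on the untreated arrays and 9.53, 9.48 and 9.69 on the tamoxifen arrays, a change of -1.85 ± 0.07 (limma SE, adjusted p = 3.61e-05). Its level separated the groups as labelled. Over all genes, the correlation between arrays was 0.996 to 0.998 within a group and 0.993 to 0.996 between groups. The defining embryonic stem cell markers were bright on every array, with a mean log2 intensity over 8 genes of 12.77 to 12.85 in untreated and 12.67 to 12.74 in tamoxifen samples, and 0 of the 8 were called. With the replicate number as a block 2 of the 8 were called lower and 0 higher, beside 9.54% and 7.87% of all genes. In 4 of the 8 all tamoxifen values lay below all untreated ones, and in 1 all lay above. Over all genes these shares were 14.8% and 14.5%.

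Of the 68 homeobox genes, 3 rose after tamoxifen, 0 fell and 65 were not called, where a call is a limma adjusted p under 0.05 over all genes. The 3 that rose were Meis2, Six4 and Gsc. Among all genes tested 3.79% were called higher and 3.99% lower, 7.78% in either direction, so 3 of 68 is near the background for rises. At an unadjusted p under 0.05, 10 members were higher and 0 lower, beside 11.5% and 13.1% of all genes. With the replicate number as a block, 5 members were called higher, the additional ones being Nkx2-9 and Vax2, and 0 lower; in that fit 7.87% of all genes were called higher and 9.54% lower. In 17 members the 3 tamoxifen values all lay above the 3 untreated ones, and in 1 they all lay below, where 14.5% and 14.8% of all genes had such groups. Within replicate pairs, 27 members were higher in all 3 and 4 were lower in all 3, beside 25.7% and 26% of all genes. In these bulk samples a higher level in every cell and a larger number of expressing cells cannot be told apart.

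**Figure D1:**
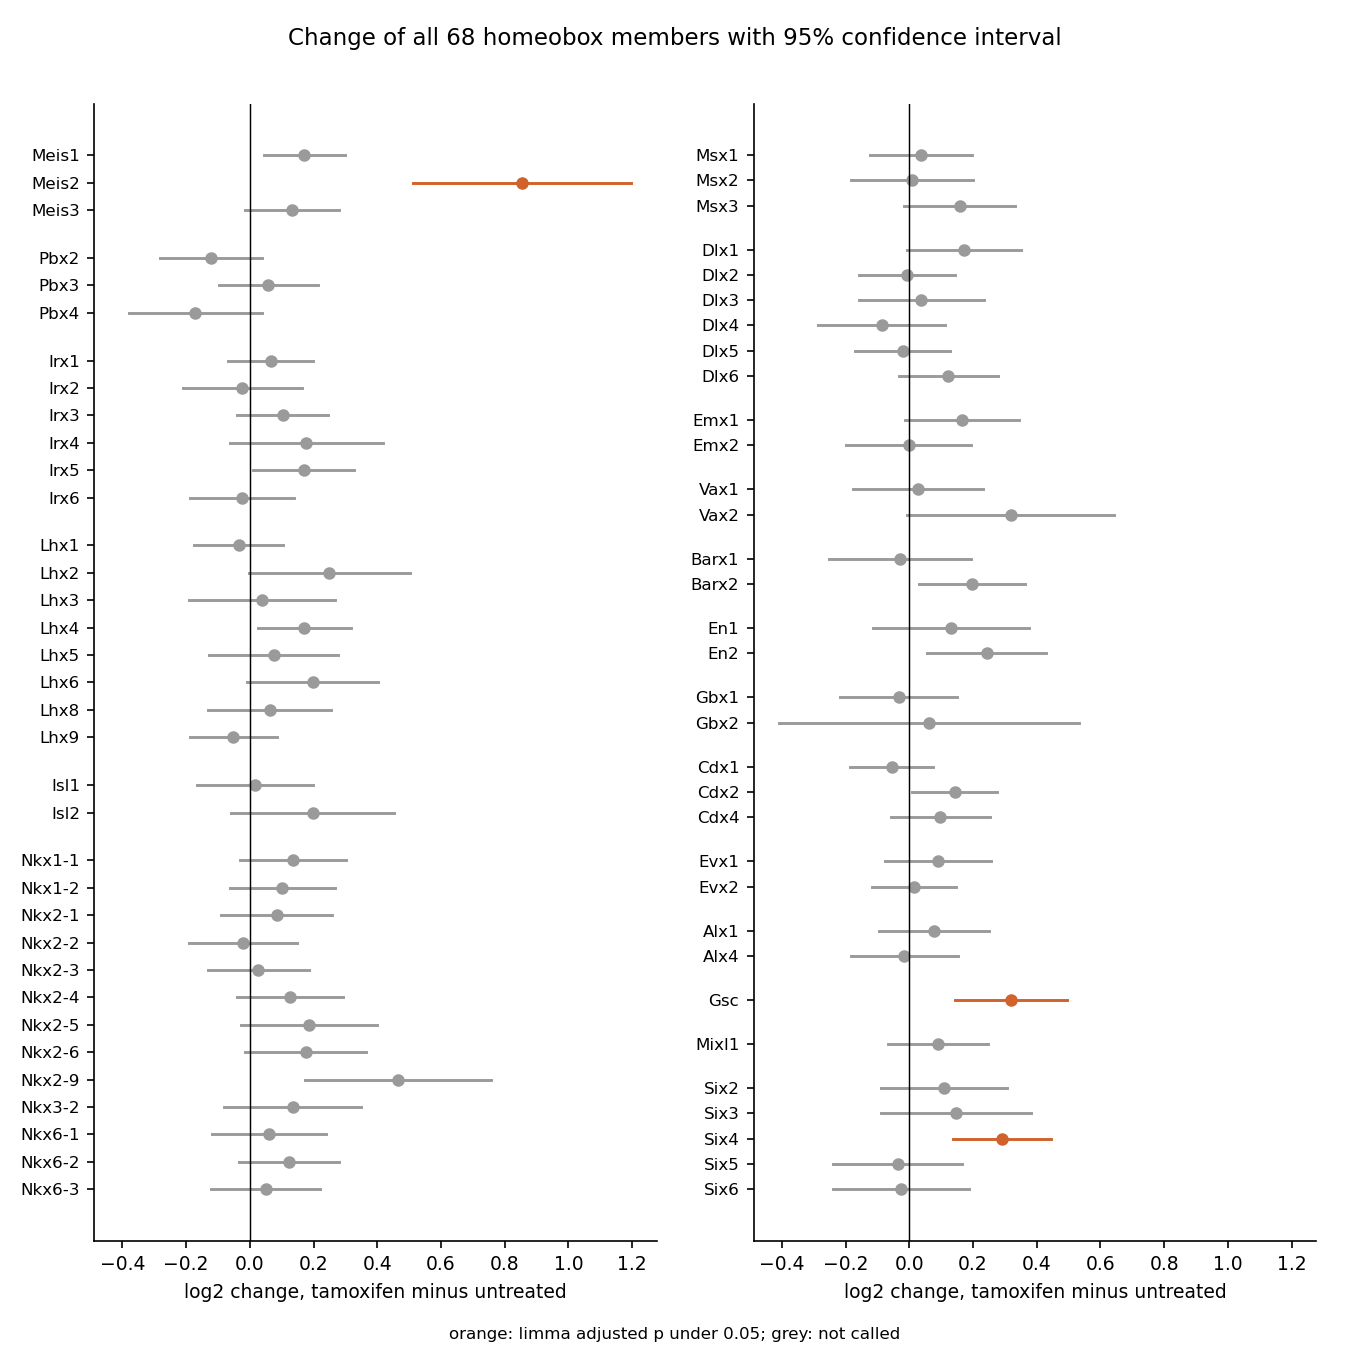
Log2 change (tamoxifen minus untreated, horizontal axis) of each of the 68 homeobox genes, grouped by family, with its 95% confidence interval. Meis2, Six4 and Gsc, in orange, passed the threshold; 61 of the 65 other intervals lie within 0.5 of 0 on both sides.

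The intensity changes of the 65 members not called were small. They ran from -0.17 (Pbx4) to 0.47 (Nkx2-9), and 61 of the 68 members changed by less than 0.2 in either direction. All genes moved about as little. The median absolute change was 0.094 over the 68 members and 0.097 over all genes. A change above 0.5 in either direction was seen in 1 of the 68 and in 516 of the 19938 genes. RMA processing shrinks differences of dim probes, and 36 of the 68 were among the dimmest 40% of genes. The intervals given here therefore bound intensity, not the change in RNA. For 61 of the 65, both ends of the 95% confidence interval lay within 0.5 of 0 on the log2 scale. The highest upper end was 0.76 (Nkx2-9, 1.69-fold), and the lowest lower end was -0.41 (Gbx2, 0.754-fold). The median change of the 68 was 0.09, against 0.01 for all genes, with 51 above 0 and 17 below; 53.2% of all genes lay above 0.

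The 250 bases upstream of the listed transcription start of the 3 genes that rose are shown here with every CpG in capitals. They are RefSeq sequences of build GRCm38.p6, read 5′ to 3′ on the minus strand, at chr2:116064620-116064869 for Meis2, chr12:73113246-73113495 for Six4 and chr12:104473237-104473486 for Gsc.
Meis2: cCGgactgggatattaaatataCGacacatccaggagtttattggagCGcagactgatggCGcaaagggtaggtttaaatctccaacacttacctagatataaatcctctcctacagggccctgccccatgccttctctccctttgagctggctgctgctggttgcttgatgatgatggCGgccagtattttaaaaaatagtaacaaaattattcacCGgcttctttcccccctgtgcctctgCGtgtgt
Six4: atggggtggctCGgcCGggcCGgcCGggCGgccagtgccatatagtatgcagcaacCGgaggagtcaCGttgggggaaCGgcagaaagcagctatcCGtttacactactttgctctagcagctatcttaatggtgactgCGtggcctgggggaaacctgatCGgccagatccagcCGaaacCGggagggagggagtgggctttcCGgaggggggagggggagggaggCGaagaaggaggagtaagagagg
Gsc: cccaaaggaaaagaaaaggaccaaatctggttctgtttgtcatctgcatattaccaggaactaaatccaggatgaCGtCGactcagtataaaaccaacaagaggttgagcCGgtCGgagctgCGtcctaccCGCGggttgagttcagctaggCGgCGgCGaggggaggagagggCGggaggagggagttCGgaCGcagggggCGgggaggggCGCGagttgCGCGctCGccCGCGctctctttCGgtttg

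The Meis2 stretch holds 7 CpG sites, that of Six4 15 and that of Gsc 22. Over the 49 members with a promoter entry the median was 16 (range 4 to 40), and over 15614 measured genes with an entry it was 11; the median GC content was 62% and 56.4%. At least 10 CpG sites stood in 42 of the 49, 85.7%, against 54.6% of all. The Meis2 stretch, with 7 sites and a GC content of 47.6%, was not among these 42 and lay below both medians. Where a gene has several starts, as Six4 does with 2, the first listed was used. Short binding motifs were searched in the same window on both strands. The homeodomain core TAAT (reverse ATTA) was found in all 3 of these promoters, but in 46.9% of the members and 47.9% of all genes. The Meis hexamer TGACAG (reverse CTGTCA) was in none of the 3, in 20.4% of the members and in 15% of all genes. The SMAD element CAGAC (reverse GTCTG) was in that of Meis2, in 49% of the members and in 41.2% of all genes. The motifs were counted independently of each other, so a match of one may overlap a match of another, and a match is only a run of letters.

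Meis2, a TALE factor that pairs with Pbx proteins and acts in limb, heart and brain development, showed the largest change of any member. Its log2 intensities were 6.09, 6.37 and 6.27 in untreated cells and 6.72, 7.21 and 7.36 after tamoxifen. All tamoxifen values were above all untreated ones, with tamoxifen replicate 1 the lowest of its group. The change was 0.85 ± 0.15 (SE), or 1.81-fold with a 95% confidence interval from 1.43 to 2.29 (adjusted p = 0.0143, or 0.00083 with the replicate block). It was higher in 3 of 3 replicate pairs, by 0.63, 0.84 and 1.09. Without tamoxifen replicate 2 the adjusted p was 0.0653, and it was called in the other 5 fits that leave out 1 array. Its exact two-sided permutation p was 0.1, the smallest that 3 against 3 arrays can give, as for the other members whose groups did not overlap.

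The other TALE members moved little. Meis1, a close relative of Meis2 in blood and limb development, had values of 6.42, 6.44 and 6.46 untreated and 6.63, 6.59 and 6.61 after tamoxifen. Its groups did not overlap and were tight, but the difference of 0.17 ± 0.06 was not called (adjusted p = 0.102). Meis3 had a difference of 0.13 ± 0.06 (adjusted p = 0.251), so that all 3 Meis genes had tamoxifen values above the untreated ones. Such groups were seen in 14.5% of all genes, and Meis1 and Meis2 were among the dimmest 40%. The Pbx genes, which encode the main binding partners of Meis proteins, had differences of -0.12 ± 0.07 for Pbx2, 0.06 ± 0.07 for Pbx3 and -0.17 ± 0.09 for Pbx4, none of them called (smallest adjusted p = 0.293). Pbx4 was at 8.64, 8.48 and 8.41 untreated and at 8.50, 8.23 and 8.29 after tamoxifen, and its groups overlapped. Of the 6 Iroquois genes, which act in neural and heart patterning, 0 were called, with differences from -0.02 (Irx6) to 0.18 (Irx4). Irx5 had the smallest p of the 6, at 7.01, 7.02 and 7.20 against 7.26, 7.26 and 7.21 (0.17 ± 0.07, adjusted p = 0.175).

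In a further list of homeobox genes, which holds no Hox cluster genes, the TALE gene Pknox2 had the largest change. Pknox proteins, also called Prep, compete with Meis proteins for Pbx. Pknox2 was at 6.85, 7.12 and 6.89 in untreated cells and 7.73, 8.17 and 8.04 after tamoxifen. It rose 2.04-fold (1.03 ± 0.12, adjusted p = 0.0039) and was called in 6 of 6 fits without 1 array. Its paralog Pknox1 had values of 8.79, 8.76 and 8.72 against 8.60, 8.54 and 8.51, a difference of -0.21 ± 0.06 that was not called (adjusted p = 0.0728, or 0.0399 with the block). Of 74 measured homeobox genes in this list, 4 rose and 1 fell, 6.76%, with a median of 0.08, so it too lay near the 7.78% of all genes. With the block 8 rose and 3 fell, in a fit that called 17.4% of all genes. The risers beside Pknox2 were the zinc-finger homeobox gene Zhx1 (0.69 ± 0.14, adjusted p = 0.0227), Onecut1 of liver and pancreas development (0.50 ± 0.09, adjusted p = 0.0135) and Meox2 of the somites (0.31 ± 0.07, adjusted p = 0.0378). Phox2a, which specifies noradrenergic neurons, fell, with a log2 change of -0.62 ± 0.07 (adjusted p = 0.00319). Pou2f3, a tuft cell regulator, had a larger difference of -0.74 ± 0.23 that was not called (adjusted p = 0.0916), but was with the block (0.000308), its pairs differing by -0.72, -0.73 and -0.76. Without 1 array, Phox2a was called in 6 of 6 fits, Zhx1 in 4, Onecut1 in 3 and Meox2 in 1.

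**Figure D2:**
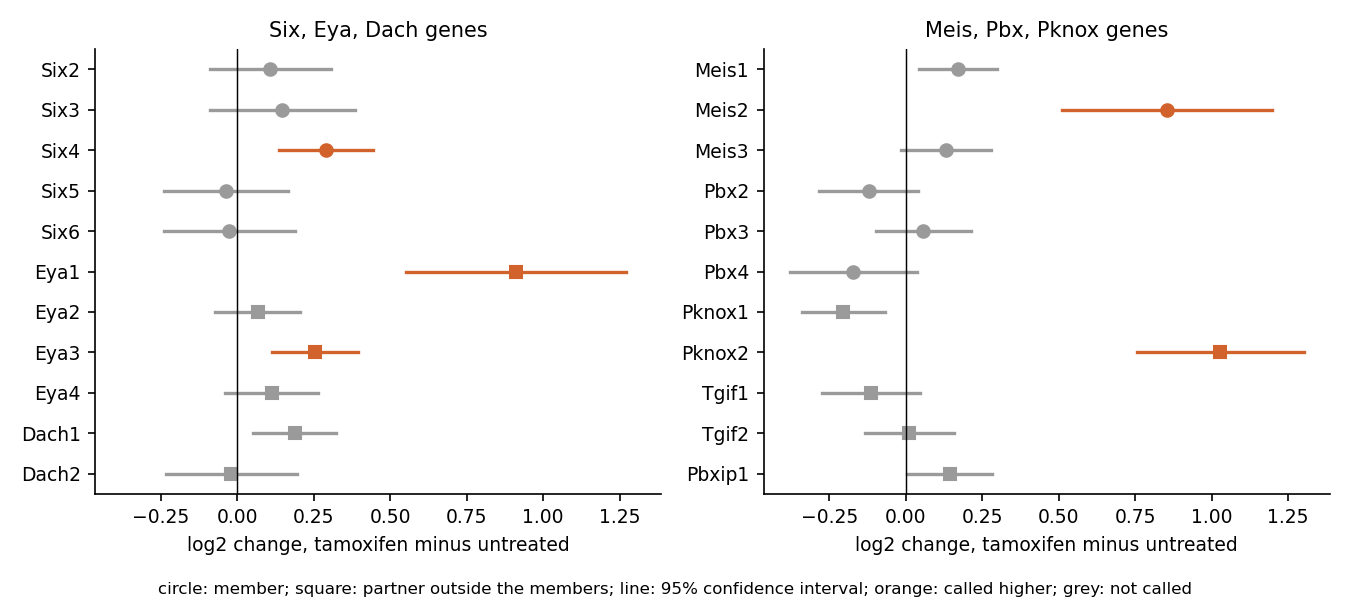
Log2 change (tamoxifen minus untreated, horizontal axis) with 95% confidence interval for Six4 and its relatives with their Eya and Dach partners (left) and the Meis and Pbx genes with Pknox, Tgif and Pbxip1 (right). Orange marks Six4, Eya1, Eya3, Meis2 and Pknox2, which were called higher; circles are members and squares are partners.

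Six4 rose, and so did 2 genes of its coactivators, Eya1 and Eya3. Proteins of the Six4 family bind DNA and recruit Eya coactivators, and together with Dach proteins they build muscle, kidney, ear and eye. Six4 values were 10.16, 10.03 and 10.12 untreated and 10.48, 10.35 and 10.35 after tamoxifen. The groups did not overlap, and the rise of 0.29 ± 0.07 (1.22-fold, 95% confidence interval 1.10 to 1.36, adjusted p = 0.0361, or 0.012 with the block) was similar in the 3 replicate pairs, at 0.31, 0.32 and 0.24. The call was kept in only 1 of 6 fits without 1 array. It was lost without untreated replicate 2 (0.123), untreated replicate 3 (0.0768), tamoxifen replicate 1 (0.08), tamoxifen replicate 2 (0.0978) and tamoxifen replicate 3 (0.0875). The 4 measured relatives of Six4 were not called, with differences from -0.04 (Six5) to 0.15 (Six3).

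Eya1 was at 7.69, 8.12 and 7.84 in untreated cells and at 8.47, 9.09 and 8.83 after tamoxifen. It rose 1.88-fold (0.91 ± 0.16, adjusted p = 0.0135), and on each replicate pair it was higher by 0.78 to 0.99. Without tamoxifen replicate 2 or 3 its adjusted p was 0.0503 and 0.0534. Eya3 rose by 0.25 ± 0.06 (adjusted p = 0.0423) and was not called in any fit without 1 array, with adjusted p-values up to 0.138. Eya2, Eya4, Dach1 and Dach2 were not called, with differences of 0.07, 0.11, 0.19 and -0.02. Over the whole list of 22 measured homeodomain cofactors, 2 rose and 1 fell (13.6%, against 7.78% of all genes; median 0.02), or 3 and 2 with the block (17.4% of all genes). Lmo4, a LIM-only protein that competes with LIM-homeodomain factors for the cofactor Ldb1, fell, with a log2 change of -0.38 ± 0.08 (adjusted p = 0.0272). Lmo4 was called in 2 of 6 fits without 1 array; it lost its call without untreated replicate 2 (0.0959), untreated replicate 3 (0.0734), tamoxifen replicate 2 (0.0899) and tamoxifen replicate 3 (0.0992).

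Gsc encodes goosecoid, a repressor of the organizer and anterior primitive streak that responds to Nodal. Its values were 8.05, 7.86 and 7.86 untreated and 8.16, 8.33 and 8.25 after tamoxifen. All tamoxifen values were above the untreated ones, by a narrow margin for untreated replicate 1 against tamoxifen replicate 1. Gsc rose by 0.32 ± 0.08 (1.25-fold, 95% confidence interval 1.10 to 1.41, adjusted p = 0.042, or 0.0263 with the block), and the pairs differed by 0.11, 0.47 and 0.38. The call was lost without untreated replicate 2 (0.137), untreated replicate 3 (0.106), tamoxifen replicate 2 (0.157) and tamoxifen replicate 3 (0.122), and with a trended robust variance prior (0.0513). In the RefSeq gene order Gsc is the protein-coding gene next to Dicer1 on chromosome 12, with 0 others between them. The other measured neighbours of Dicer1, which are Serpina3n beyond Gsc, and Clmn, Syne3, Glrx5 and Tcl1b2 on the far side, had differences from -0.19 (Clmn) to 0.23 (Tcl1b2), none of them called. Whether the place beside the deleted gene bears on the Gsc value was not tested.

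Mixl1, which is switched on in the streak and drives endoderm formation, was not called. It was at 7.01, 6.97 and 6.90 in untreated cells and 7.00, 7.00 and 7.16 after tamoxifen, groups that overlap. The difference was 0.09 ± 0.07 (adjusted p = 0.467). Its 95% confidence interval ran from -0.07 to 0.25, at most 1.19-fold in array intensity. Mixl1 was among the dimmest 40% of genes, where RMA processing shrinks differences, so the interval does not bound the change in RNA. Of 19 measured primitive streak and Nodal genes, 3 rose and 0 fell (15.8%, against 7.78% of all genes; median 0.07). With the block 7 rose and 4 fell, where 17.4% of all genes were called. Nodal itself was at 10.44, 10.48 and 10.52 against 10.88, 10.89 and 10.91, a rise of 0.42 ± 0.06 (adjusted p = 0.00664), and the Nodal inhibitor Lefty1 rose by 1.23 ± 0.14 (adjusted p = 0.00389). Kdr, the mesodermal and endothelial VEGF receptor, rose by 0.26 ± 0.07 (adjusted p = 0.0468), with 0 calls in the 6 fits without 1 array. Eomes, which acts with Mixl1 in the streak, differed by -0.57 ± 0.23 (adjusted p = 0.174; with the block, 0.00745), and the Nodal effector Foxh1 by -0.30 ± 0.12 (0.171; with the block, 0.01). Rises of Gsc, Nodal and Lefty1 thus stood beside uncalled values for Mixl1, Eomes and Foxh1; these genes were compared on the same 6 arrays.

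**Figure D3:**
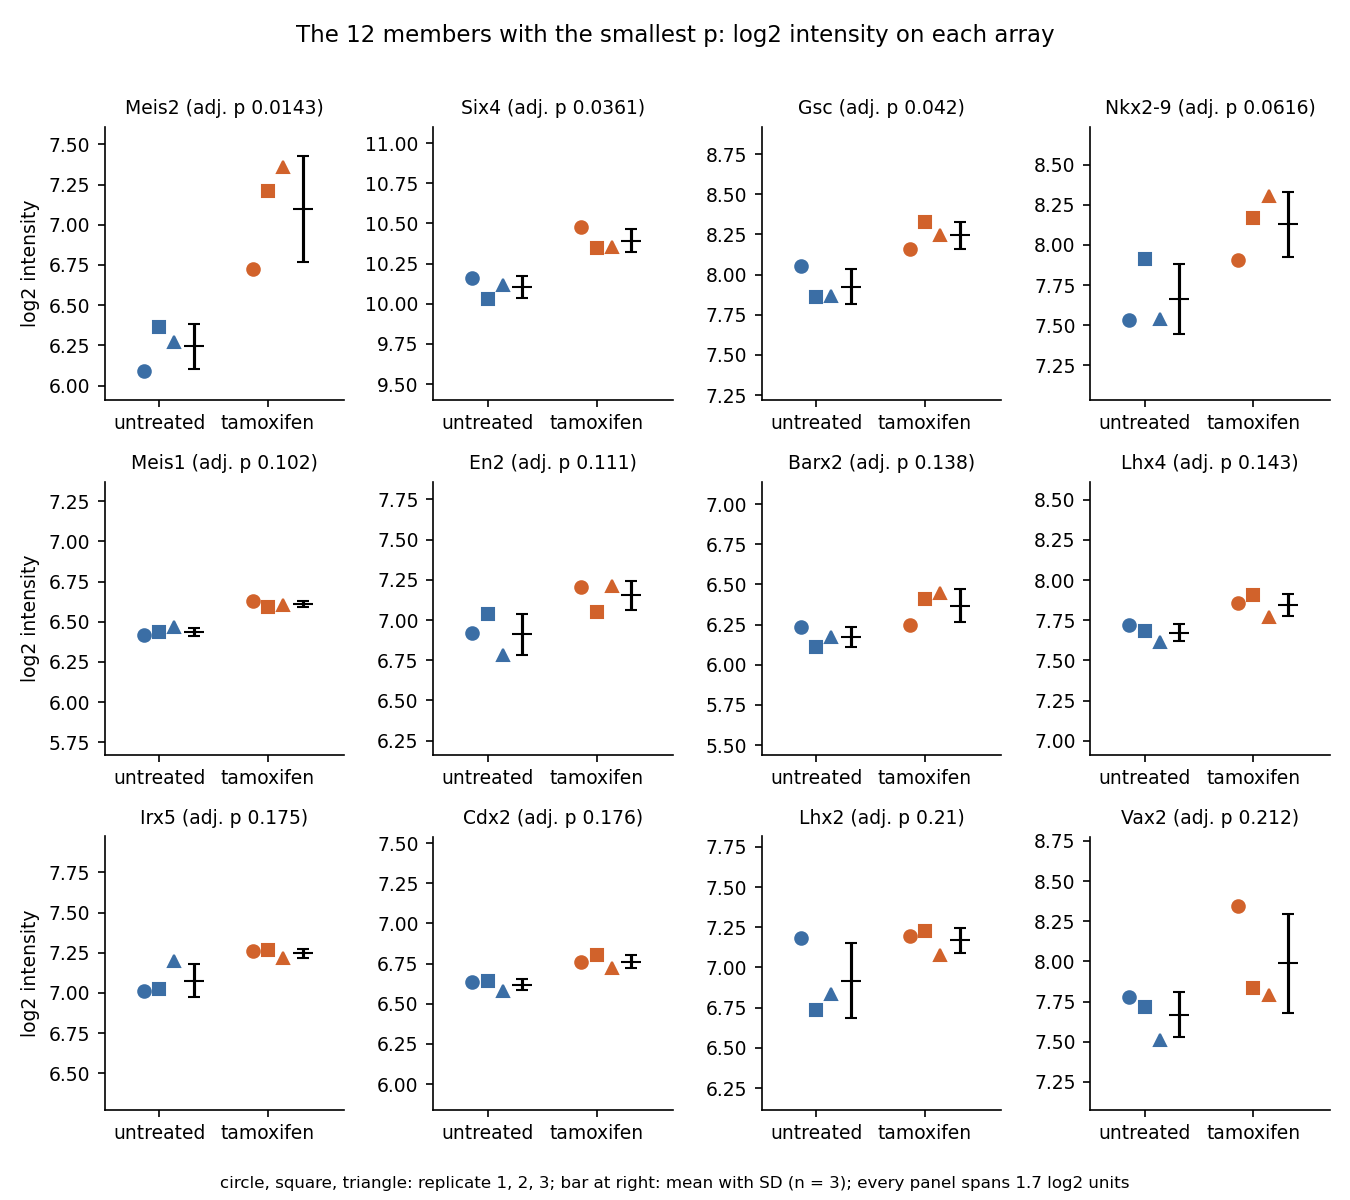
Log2 intensity of the 12 members with the smallest p on each array, untreated in blue and tamoxifen in orange, with a symbol for each replicate number and the mean ± SD of 3 arrays at the right; all panels span the same height. Meis2 shows the widest separation, while Nkx2-9 and Lhx2 overlap between groups.

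The Nkx genes, which specify ventral neural tube, heart, thyroid and gut cell types, were the largest family with 13 measured members. None was called, and 12 of the 13 differences were above 0, from -0.02 (Nkx2-2) to 0.47 (Nkx2-9). Above 0 lay 51 of all 68 members and 53.2% of all genes. Nkx2-9, a floor plate and gut gene, was at 7.53, 7.91 and 7.54 untreated and 7.91, 8.17 and 8.30 after tamoxifen. The highest untreated value lay just above the lowest tamoxifen value, although each pair was higher after tamoxifen, by 0.37, 0.26 and 0.77. Its difference of 0.47 ± 0.13 had an adjusted p of 0.0616, and of 0.0133 with the replicate block. It was also called without untreated replicate 2 (0.0464) and without tamoxifen replicate 1 (0.03).

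The LIM-homeodomain genes, which set neuron and limb identities, were also uncalled. The 8 Lhx differences ran from -0.05 (Lhx9) to 0.25 (Lhx2), and the 2 Isl differences were 0.02 (Isl1) and 0.20 (Isl2, adjusted p = 0.323). Lhx4 had the smallest p of the family, at 7.72, 7.69 and 7.62 against 7.86, 7.91 and 7.77 (0.17 ± 0.06, adjusted p = 0.143). Lhx2, a selector of forebrain and eye, was at 7.18, 6.74 and 6.83 in untreated cells and at 7.20, 7.23 and 7.08 after tamoxifen. Untreated replicate 1 of Lhx2 thus lay within the tamoxifen range, and without that array the adjusted p went from 0.21 to 0.0297.

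The caudal genes pattern the posterior body, and Cdx2 also specifies the trophectoderm. Cdx2 values were 6.63, 6.64 and 6.58 untreated and 6.76, 6.80 and 6.72 after tamoxifen. The groups did not overlap, and the difference was 0.14 ± 0.06, or 1.10-fold, with an adjusted p of 0.176 and 0 calls in 15 alternative fits. Cdx1 was the sole member whose tamoxifen values all lay below the untreated ones, at 8.04, 8.06 and 8.04 against 8.01, 8.01 and 7.95, a difference of -0.06 ± 0.06 (adjusted p = 0.599). Of 8 trophectoderm markers other than Cdx2, 0 were called without the block, and 1 higher and 2 lower with it. With the block 7.87% of all genes were called higher and 9.54% lower.

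Msx and Dlx genes are known targets of BMP signals in ectoderm, neural crest and limb. The 3 Msx differences ran from 0.01 (Msx2) to 0.16 (Msx3, adjusted p = 0.248) and the 6 Dlx differences from -0.09 (Dlx4) to 0.17 (Dlx1, adjusted p = 0.223), with 0 calls. On the same arrays, some genes of the BMP pathway itself were called, in a list chosen with earlier results of these data known. Of 15 measured BMP and Id genes, 4 rose and 2 fell (40%, against 7.78% of all genes, median 0.01). With the block 4 rose and 3 fell (17.4% of all genes). Only 1 of the 15 was among the dimmest 40%. With all genes cut into 5 equal bins by signal, the shares called were 0.677%, 2.73%, 10.6%, 15.3% and 9.68% from the dimmest to the brightest bin. The 40% was not tested against the share of all genes. The ligand gene Bmp4 fell (-0.86 ± 0.14, adjusted p = 0.0122), as did the BMP target Id1 (-0.61 ± 0.08, adjusted p = 0.00527), while Id2 rose by 0.78 ± 0.10 (adjusted p = 0.00456) and Id4 by 0.53 ± 0.08 (adjusted p = 0.00951). Without tamoxifen replicate 2, Bmp4 had an adjusted p of 0.0569.

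The remaining families held no called member. En2, a midbrain and hindbrain gene, was at 6.92, 7.04 and 6.78 against 7.20, 7.05 and 7.21 (0.24 ± 0.08, adjusted p = 0.111). Barx2, a gene of muscle and craniofacial tissue, was at 6.23, 6.11 and 6.17 against 6.25, 6.41 and 6.45 (0.20 ± 0.07, adjusted p = 0.138). Vax2, which patterns the ventral retina, was at 7.78, 7.71 and 7.51 untreated and at 8.34, 7.83 and 7.79 after tamoxifen. Tamoxifen replicate 1 held most of the Vax2 difference of 0.32 ± 0.14 (adjusted p = 0.212, or 0.0359 with the block); without it the difference was 0.14. The forebrain gene Emx1 had a difference of 0.17 ± 0.08 (adjusted p = 0.239), the posterior gene Evx1 of 0.09 ± 0.07 (0.498) and the craniofacial gene Alx1 of 0.08 ± 0.08 (0.574).

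Gbx2, which is known both for hindbrain patterning and as a self-renewal factor of stem cells, had the largest SE of all members, 0.21. Its values were 9.64, 10.27 and 9.74 in untreated cells and 9.69, 10.39 and 9.76 after tamoxifen. Replicate 2 was the highest in both groups, and within pairs the differences were 0.05, 0.12 and 0.02, so the spread lay between replicate numbers. With the block the SE was 0.06 and the change of 0.06 was still not called (adjusted p = 0.501). Otx2, a homeobox gene outside the members that opposes Gbx2 at the midbrain boundary, was likewise highest in replicate 2 of each group, at 9.47, 10.10 and 9.84 against 9.53, 10.01 and 9.59. Gbx1 was at 6.74, 6.91 and 6.64 against 6.75, 6.78 and 6.66 (-0.03 ± 0.08, adjusted p = 0.846).

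Several members are neighbours in the RefSeq gene order, and their values are given side by side. Of the 6 pairs of members less than 100 kb apart, none held a called gene. The Dlx pairs had differences of 0.17 and -0.01 (Dlx1 and Dlx2), 0.04 and -0.09 (Dlx3 and Dlx4) and 0.12 and -0.02 (Dlx6 and Dlx5). Nkx2-9 at 0.47 ± 0.13 lies beside Nkx2-1, which had 0.08 ± 0.08. Nkx2-4 and Nkx2-2 had 0.13 and -0.02, and Six3 and Six2 had 0.15 and 0.11.

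**Figure D4:**
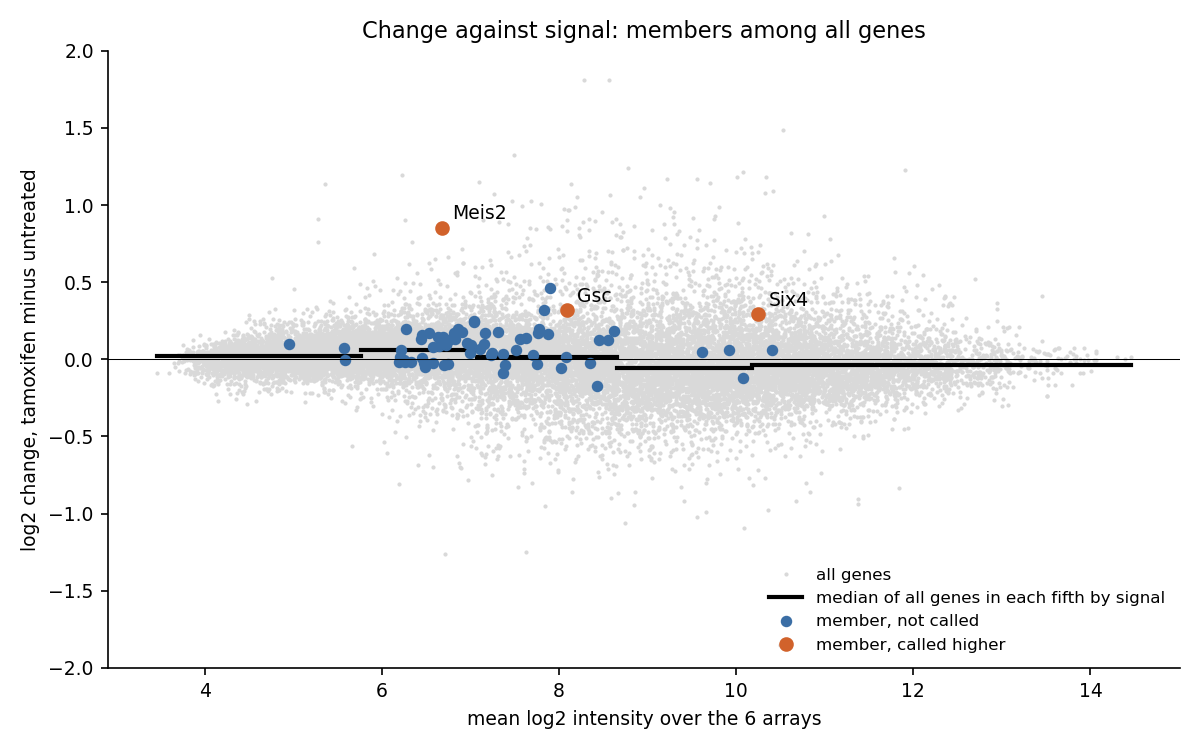
Log2 change (vertical axis) against mean log2 intensity over the 6 arrays (horizontal axis) for all 19938 genes in grey, with members in blue, the 3 called members in orange and black lines for the median of all genes in each of 5 equal bins of genes by signal. Members gather at low signal, 36 of 68 among the dimmest 40%, where the grey median lies slightly above 0.

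The median change of the members is given beside that of all genes by signal, and by array. Of the 68, 36 lay among the dimmest 40% of genes. With all genes cut into 5 equal bins by signal, the bin from 5.76 to 7.07 held 33 members, and the median change there was 0.09 for the members and 0.06 for all genes, and 72.7% of all genes there lay above 0. In the bin from 7.07 to 8.66, with 27 members, the medians were 0.10 and 0.01, and 21 of the 27 members lay above 0 beside 52.7% of all genes. In the dimmer of these bins 24 of the 33 members did. The member median was thus similar in both bins, while that of all genes was lower in the brighter one. Untreated replicate 3 had the lowest of the 6 values in 40 of the 68 members. The median over members was 7.01, 7.00 and 6.85 on the untreated arrays and 7.04, 7.17 and 7.15 on the tamoxifen arrays. Over all genes the medians were 7.83, 7.82 and 7.79 untreated and 7.84, 7.81 and 7.80 after tamoxifen. The median difference of the members was -0.00 in replicate pair 1, 0.09 in pair 2 and 0.16 in pair 3. That of all genes was -0.005, 0.006 and 0.010. Without untreated replicate 3 the median change of the members was 0.06, and without untreated replicate 1 it was 0.11. The part of single arrays in the median of the members was not tested.

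Without the block, markers of other cell types gave 1 call, in a fit that called 7.78% of all genes. The mesoderm marker Kdr was called, and 0 of 11 fibroblast, 0 of 8 trophectoderm, 0 of 8 primitive endoderm and 0 of 6 neural progenitor markers were. With the block, 2 fibroblast markers were higher and 1 lower, 1 trophectoderm marker was higher and 2 lower, and 1 primitive endoderm marker was higher and 1 lower. In that fit 2 neural progenitor and 2 of the 4 measured mesoderm markers were higher, with 0 lower in either list. The blocked fit called 7.87% of all genes higher and 9.54% lower. The part of these cell types in the members' values was not tested. The mean log2 intensity of the fibroblast markers was 6.50 to 6.62 in untreated and 6.60 to 6.68 in tamoxifen samples, and 6 of the 11 were among the dimmest 40%. That of the mesoderm markers was 6.62 to 6.66 and 6.75 to 6.82, and that of the neural markers 7.40 to 7.50 and 7.50 to 7.68. RMA values carry no detection call, so whether a dim marker or member was expressed was not tested.

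**Figure D5:**
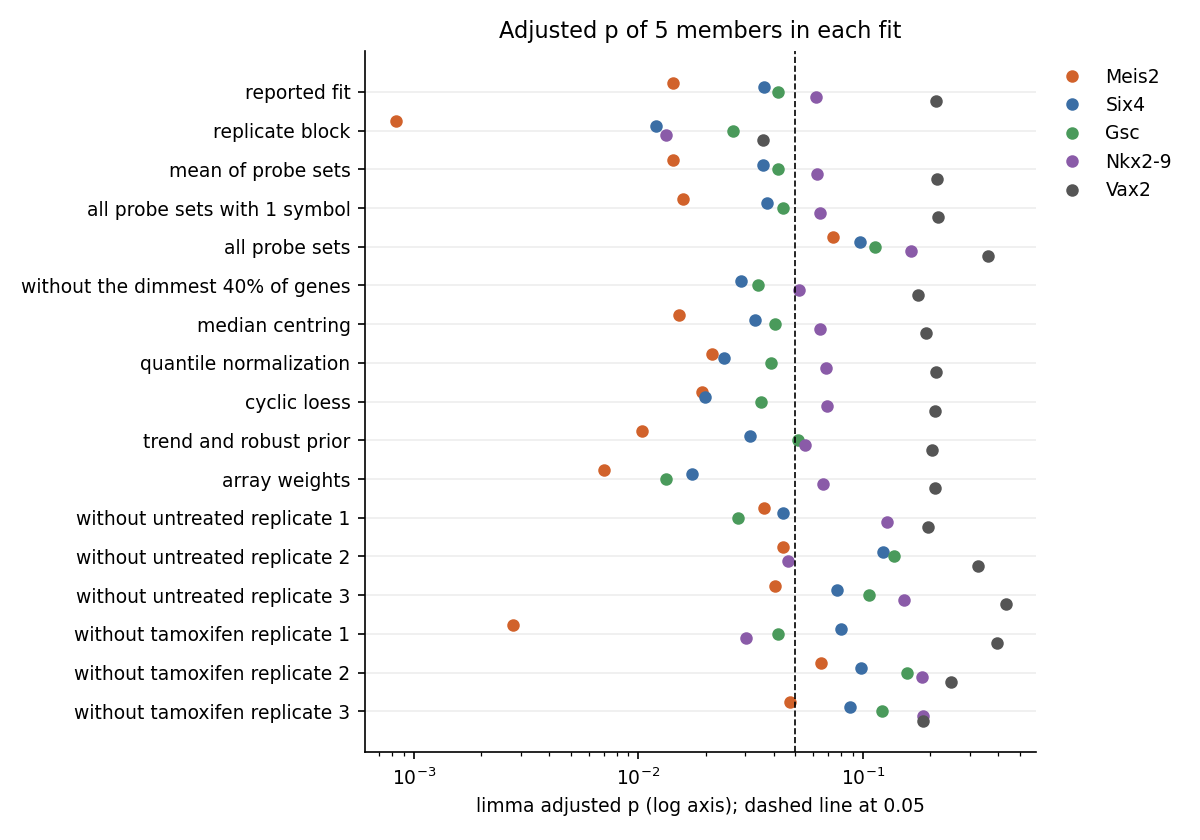
Limma adjusted p (horizontal log axis) of Meis2, Six4, Gsc, Nkx2-9 and Vax2 in the reported fit and in each alternative fit, with a dashed line at 0.05. Meis2 lies left of the line in 13 of its 15 alternatives, and Six4 and Gsc in 10 of 16 each.

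Without 1 array, the number of members called higher was 4 without untreated replicate 1 (3.15% of all genes), 2 without untreated replicate 2 (1.58%) and 1 without untreated replicate 3 (2.33%). Leaving out tamoxifen replicate 1 gave 3 (3.44%), leaving out its replicate 2 gave 0 (1.11%, with 7 members higher before adjustment at p under 0.05), and leaving out its replicate 3 gave 1 (1.72%). When all 35556 probe sets were fitted, including those with no listed gene, which changes both the variance prior and the number of rows adjusted over, 0 of the 68 members were called by limma, where 0.622% of probe sets were called higher. The adjusted p was then 0.0735 for Meis2, 0.0972 for Six4 and 0.113 for Gsc, and 10 members still had an unadjusted p under 0.05.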

How the data were processed

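Total RNA of 6 samples, 3 untreated and 3 given tamoxifen, was hybridised to Affymetrix gene arrays. The authors deposited 1 log2 intensity per probe set and array, computed by RMA (Affymetrix Expression Console 1.2, as listed in the submitters' processing notes). This method subtracts background, equalises the distributions of the arrays and shrinks differences of dim probes, so a shift common to most genes cannot be seen. In the deposited values the array medians over probe sets still ran from 7.19 to 7.26. The array's genome build is not given in the sources used here.

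There were 35556 probe sets, and 21789 of them carried a single symbol; keeping the brightest for each gene left 19938 genes. Entrez IDs of 21698 probe sets matched RefSeq (GRCm38.p6). RefSeq holds 72 genes that match the naming pattern, and 4 of them were not analysed here. The groups were tested in limma 3.58.1 (R 4.3.3) by lmFit and eBayes, two-sided, with Benjamini-Hochberg adjustment over all genes and no filter. The code was tested on simulated arrays. Same-numbered arrays of the 2 groups deviated together (correlations 0.356, 0.345 and 0.389), so the numbers were taken as pairs, and a fit with the number as a block was added. Precision is limited by the number of arrays.

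Members and lists were chosen with earlier results of these data known. Named by rule were Dicer1, the 3 called members, the smallest p-values up to 12 members, Gsc, Mixl1, Cdx2, the smallest p of each family and up to 2 called genes per direction of each list. Other genes named were picked after their values were seen. Alternatives were the block, the mean of probe sets, wider sets of rows, a dim filter, 3 normalisations, another variance prior, array weights and leaving out each array.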

Additional observations from a re-analysis of the deposited data

How the results depend on the processing

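The Dicer1 fall and the absence of falling members held in all 16 alternatives. The median change of the members stayed above 0 in all of them, from 0.06 after renewed quantile normalisation to 0.10 with array weights, and from 0.06 to 0.11 when 1 array was left out. Over the named members, 302 comparisons with an alternative kept direction and side of the threshold, 14 lost a call, 5 gained one and 2 changed sign. The sign changes were both of Gbx1, to 0.042 without untreated replicate 2 and to 0.0013 without tamoxifen replicate 3, in a range from -0.095 to 0.042 over the fits without 1 array.

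With the replicate block, 5 members were called higher, 11 other homeobox genes, 5 cofactors and 11 streak and Nodal genes, against 3, 5, 3 and 3; the share of all genes called went from 7.78% to 17.4% in the same fit. Beyond those counts and the block values given beside single genes, it changed no other call of a named member. In the fit over all probe sets, called genes numbered 0 of the members, 2 of the other homeobox genes, 0 of the cofactors and 2 of the BMP and Id genes, the last against 6. Array weights gave 8 other homeobox genes and 7 streak and Nodal genes, and the trended robust prior 5 of the latter. The share of all genes called in these fits is not given here, so these counts cannot be read as a result about the lists. Leaving out 1 array gave 0 to 4 members called higher, 2 to 6 other homeobox genes, 0 to 2 cofactors, 2 to 4 streak and Nodal genes and 3 to 5 BMP and Id genes. The fewest members were called without tamoxifen replicate 2 (0), and 1 without tamoxifen replicate 3 or untreated replicate 3. The filter on dim genes left out 36 members, Meis2 among them. The cause of these differences was not tested.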
